A study of Mus musculus with 2 samples.

Results

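B-cells in the blood of mice of 77 weeks were compared with those of the oldest mice of the study, aged 99.1 to 101.1 weeks, an interval late in the life of the mouse. The cells were those annotated as B-cells in the cell table of the study and taken from mice of these 2 age groups, which gave 345 cells of the 981 listed cells with RNA. They came from 3 mice of 77 weeks with 150 B-cells and 3 oldest mice with 195 B-cells. All mice were wildtype C57BL/6 J males, no treatment is given, and red blood cells were lysed before sorting. Single nucleated cells were sorted to plates, with 1 plate per mouse, and their RNA was read beside their DNA methylation by scM&T-seq, so that plate and mouse cannot be told apart. The mice of 77 weeks were mouse 21, of 77.4 weeks with 54 B-cells, and mice 22 and 23, of 77 weeks with 44 and 52 B-cells. The oldest mice were mice 1 and 2, of 101.1 weeks with 78 and 48 B-cells, and mouse 3, of 99.1 weeks with 69 B-cells.

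B-cells recognise antigen through a surface immunoglobulin of heavy and light chains, which passes its signal inward through the partner chains Cd79a and Cd79b, while coreceptors such as Cd72 and Cr2 set the strength of the signal. The actin network below the membrane holds the receptors in place and is rebuilt when antigen binds. With age the production of new B-cells in the bone marrow declines and the pool in blood holds more long-lived and antigen-experienced cells.

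The annotation was checked against marker genes. Cd79a, a partner chain of the B-cell receptor, had a count in 99.3% of the cells of 77 weeks and 99.5% of those of the oldest mice, and Cd74, the invariant chain of MHC class II, in 100% of both. Cd3d of the T-cell receptor complex had a count in 0 and 3 cells, and Lyz2 of myeloid cells in 0 and 0 cells. The 7 T-cell markers summed to 0 to 0.249 CPM (the count of a gene relative to all counts of a mouse, normalised as described for the gene test) per mouse at 77 weeks and 0.111 to 0.421 CPM in the oldest mice, with 3 and 1 of them at 0. A longer list of 16 T-cell genes summed to 96.2, 17.3 and 0.275 CPM in mice 21, 22 and 23. In mice 1, 2 and 3 it summed to 28.8, 33.2 and 18.2 CPM. The 3 NK cell markers summed to at most 0.0562 and 0.111 CPM, with 2 of 3 at 0 at each age, and a longer list of 11 NK cell genes to at most 2.96 and 3.06 CPM. The 5 markers of monocytes and neutrophils summed to 1.63 to 2.34 CPM and 0.672 to 1.28 CPM, nearly all from Csf1r. Csf1r also had a count in 48.5% of the T-cells. A longer list of 15 monocyte and neutrophil genes summed to 557, 405 and 589 CPM in mice 21, 22 and 23. In mice 1, 2 and 3 this list summed to 629, 454 and 509 CPM. Most of these sums came from Cst3, at 468, 372 and 555 CPM and at 513, 384 and 439 CPM in the same order. Plasma cell markers (Jchain, Sdc1, Prdm1) summed to 0 to 0.275 CPM at 77 weeks and to 1817 CPM in mouse 1 against 1.78 and 1.34 CPM in mice 2 and 3. Jchain, which joins immunoglobulin multimers, had a count in 2 cells of the oldest mice.

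Several properties of the cells differed between the ages beside the genes described below. Hemoglobin genes, which mark RNA of red blood cells, took 2.01, 4.88 and 3.51% of the counts of a B-cell in mice 21, 22 and 23 and 0.813, 0.00441 and 0.591% in mice 1, 2 and 3. The study sorted cells into contamination classes by their mean reads of 4 hemoglobin genes, and class 0, the cells with the lowest level, made up 64.8, 45.5 and 69.2% of the B-cells at 77 weeks and 93.6, 95.8 and 94.2% in the oldest mice. A number in the raw file names, read here as the sequencing lane, was 1 for mice 22 and 23 and 2 for mouse 21 and all oldest mice. Platelet markers (Pf4, Ppbp) summed to 33.0 CPM in mouse 22 and to at most 0.112 CPM in the other 5 mice. A longer list of platelet genes summed to 33.1 CPM in mouse 22, 7.91 CPM in mouse 2 and at most 0.421 CPM in the rest. The mean count per cell was 309771 ± 21955 (SD, n = 3 mice) at 77 weeks and 375758 ± 26221 (SD, n = 3) in the oldest mice. The part that these differences have in the results was not tested, and the gene test in class 0 cells and in lane 2 is given after the main test.

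B-cells of the oldest mice held more genes with a count. After each cell was thinned at random to 150000 counts, B-cells of mice 21, 22 and 23 had a mean of 1862, 2112 and 1779 genes and those of mice 1, 2 and 3 had 2350, 2391 and 2304 genes. The groups did not overlap, and the means were 1918 ± 173 (SD, n = 3) and 2348 ± 43.3 (SD, n = 3) genes (exact permutation test over mice, two-sided, p = 0.1, below which groups of 3 cannot go). In class 0 cells the difference was 437 genes, against 431 genes in all B-cells. The 100 genes with the most counts in a cell took 41.0, 38.1 and 39.9% of its counts at 77 weeks and 35.3, 34.3 and 34.0% in the oldest mice, again without overlap (exact permutation p = 0.1). T-cells of the same mice were likewise apart, with 2250, 2548 and 2238 genes at 77 weeks and 3030, 3009 and 3093 genes in the oldest mice (exact permutation p = 0.1).

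**Figure D1:**
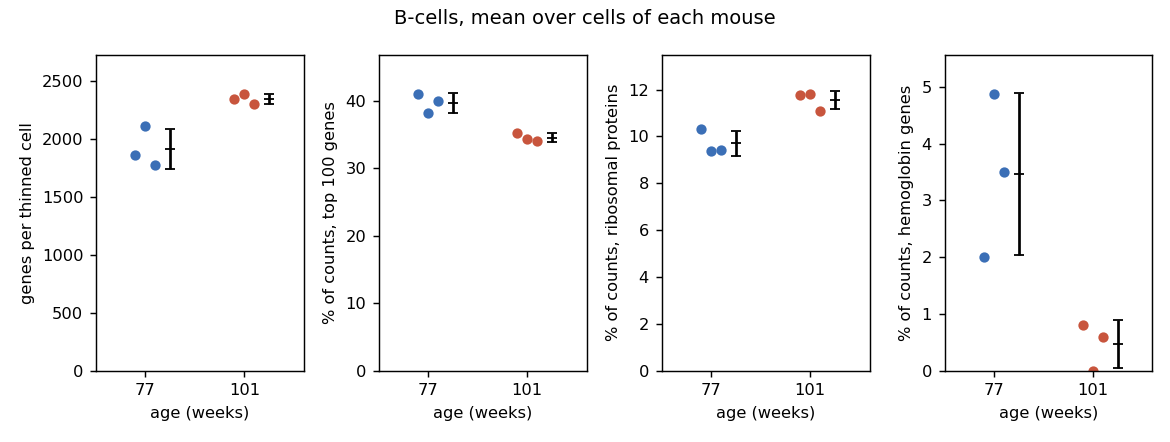
Means over the B-cells of each mouse of the genes detected after thinning to 150000 counts and of the percent of counts from the top 100 genes, ribosomal protein genes and hemoglobin genes. Points are mice, blue at 77 weeks and red for the oldest mice, and bars are the mean ± SD of 3 mice, and the ages do not overlap in any of the 4 panels.

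For the comparison of single genes, counts were summed over the B-cells of each mouse and 2903 genes with a count in at least 25% of the cells were tested with edgeR's quasi-likelihood test. At a Benjamini-Hochberg adjusted p under 0.1, 18 genes (0.62% of the genes tested) passed, of which 6 (0.207%) were higher and 12 (0.413%) lower in the oldest mice. At an unadjusted p under 0.05 there were 197 higher (6.79%) and 242 lower genes (8.34%), and 335 genes (11.5%) had all oldest mice above and 333 (11.5%) all below those of 77 weeks. The median log2 fold change of all genes tested was 0.01. Upper quartile scaling shifted this median to 0.09 and gave 8 higher and 8 lower genes, and limma on log2(CPM + 1) averaged across the cells of a mouse shifted it to 0.42 and gave 533 higher and 18 lower genes. The genes that passed fell into 2 kinds. Of the 18 genes, 12 reached 10 CPM at 1 age or both, among them actin genes, surface proteins of B-cells and lambda light chain genes, and 6 stayed below 10 CPM at both ages. The count of 18 rests on all 6 mice, since it was 10 without mouse 21, 8 without mouse 22, 1 without mouse 23, 1 without mouse 1 and 3 without mouse 2 or mouse 3. Of these genes 5, 5, 1, 1, 3 and 2 were among the 18, in the order of mice 21, 22, 23, 1, 2 and 3. In class 0 cells 9 genes passed, of which 5 were among the 18 (Gm42497, Olfr672, Tmsb4x, Ccdc36 and Elavl3), and among the 4 mice of lane 2, with 1 mouse of 77 weeks, edgeR called 0 genes, beside 445 whose unadjusted p was under 0.05. The calls lost in class 0 cells include Actb (edgeR adjusted p = 0.15), Cd72 (0.236), Ly6d and Iglc2 (0.309 each), Iglj1 (0.353), Flna (0.371), Rassf3 (0.501) and H2-Q5 (0.555). Their log2 fold changes there were -0.72, -1.63, -0.66, -0.66, -1.55, 1.40, 1.46 and 1.21 in the same order. In lane 2 the adjusted p of the 18 genes was 0.149 to 0.232, and each had the sign of the main test in both settings.

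**Figure D2:**
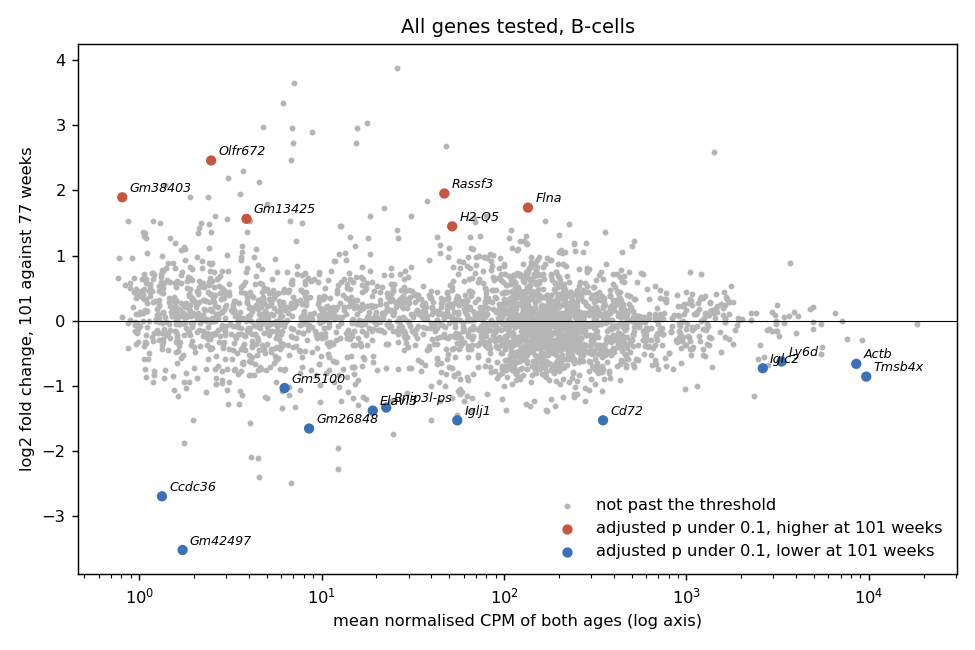
Log2 fold change of the oldest mice over 77 weeks against the mean level (CPM, log axis) of the 2903 genes tested in B-cells. The 6 genes that rose (red) and the 12 that fell (blue) past an adjusted p of 0.1 are named, and the 4 most abundant of them (Tmsb4x, Actb, Ly6d and Iglc2) all fell. Some names overlap where points lie close.

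The most abundant genes that fell belong to the actin cytoskeleton. Tmsb4x encodes thymosin beta 4, which binds single actin molecules and keeps them out of filaments. Its normalised level was 11822, 13165 and 12455 CPM in mice 21, 22 and 23 and 6587, 7558 and 6494 CPM in mice 1, 2 and 3. All oldest mice were below all of 77 weeks, and Tmsb4x fell by 0.86 on the log2 scale (SE 0.08, edgeR adjusted p = 0.0214), to a fold of 0.551. Every B-cell of both ages had a count of Tmsb4x after thinning, and the mean per cell went from 1823 to 1100 of 150000 counts. Tmsb4x passed in the class 0 cells (log2 fold change -0.88, adjusted p = 0.0697), and its log2 fold change within lane 2 was -0.79 (adjusted p = 0.16). Actb, the gene of beta actin itself, was at 8891, 11272 and 11233 CPM at 77 weeks and at 6393, 6989 and 6441 CPM in the oldest mice. Actb fell by 0.66 on the log2 scale (SE 0.11, adjusted p = 0.089), with all 3 oldest mice lower.

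The actin list held 35 tested genes, of which these 2 fell past the threshold and 0 rose, and which does not hold Flna. At an unadjusted p under 0.05, 11 were lower and 1 was higher, 9 had all oldest mice below and 1 above, beside 8.34% lower, 6.79% higher and 11.5% on each side of all genes tested. The median log2 fold change of the list was -0.30 beside 0.01. Capzb, which caps the ends of filaments, was at 577, 628 and 672 CPM at 77 weeks and 351, 393 and 433 CPM in the oldest mice (adjusted p = 0.15). Arhgdib was at 2768, 2872 and 2923 CPM and 2329, 2143 and 2149 CPM (adjusted p = 0.15). Actg1, the gene of gamma actin, was at 144, 296 and 289 CPM and 246, 223 and 310.0 CPM, with overlap between the ages (adjusted p = 0.919).

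In contrast to these, Flna rose. Flna encodes filamin A, a long protein that crosslinks actin filaments and links them to membrane receptors. Its level was 63.8, 68.2 and 55.7 CPM at 77 weeks and 235, 228 and 162 CPM in the oldest mice. All oldest mice were above, by a fold of 3.33 (log2 fold change 1.74, SE 0.26, adjusted p = 0.0671). The share of thinned B-cells with a count of Flna was 16.4% ± 5.75 (SD, n = 3) at 77 weeks and 40.6% ± 8.54 (SD, n = 3) in the oldest mice (exact permutation p = 0.1), as for 31.2% of all genes tested, whose shares were higher in all oldest mice. Macf1, which links actin to microtubules, went the same way without passing, at 860, 900 and 960 CPM and 1330, 1401 and 1734 CPM (log2 fold change 0.71, adjusted p = 0.109). Rassf3, a member of the Ras association domain family, rose as well. It was at 14.0, 20.5 and 23.5 CPM at 77 weeks and 89.7, 61.5 and 73.4 CPM in the oldest mice (log2 fold change 1.95, SE 0.28, adjusted p = 0.059). At 77 weeks a single cell held 65.9, 58.7 and 90.6% of the Rassf3 counts of its mouse, and without the top cell of every mouse the levels were 4.77, 8.47 and 2.20 CPM against 72.6, 43.5 and 57.9 CPM.

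Surface proteins of B-cells made up a further group of the genes that fell. Cd72 encodes an inhibitory coreceptor of the B-cell receptor. It was at 475, 445 and 636 CPM at 77 weeks and at 201, 195 and 143 CPM in the oldest mice. The groups did not overlap, and Cd72 fell by 1.53 on the log2 scale (SE 0.23, adjusted p = 0.0671). The share of thinned cells with a count of Cd72 was 40.7% ± 3.60 (SD, n = 3) and 47.2% ± 5.03 (SD, n = 3), with overlap between the ages (exact permutation p = 0.2). In the cells that had one, the mean was 141 to 224 counts per mouse at 77 weeks and 55.8 to 66.6 counts in the oldest mice, so the ages separated by the counts per positive cell and not by the share of positive cells. Ly6d, a GPI-anchored protein present on B-cells from the early lymphoid stage on, was at 4146, 4185 and 3774 CPM and at 2337, 2816 and 2679 CPM. Ly6d fell by 0.63 on the log2 scale (SE 0.10, adjusted p = 0.089), and its share of positive cells was 94.2% ± 4.99 and 95.4% ± 3.96 (SD, n = 3 each, exact permutation p = 0.8).

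The promoters of Cd72, Tmsb4x and Flna, genes past the threshold with roles at the membrane or in the actin network, are shown as RefSeq gives them for build GRCm38.p6, from 250 bases before to 50 after the RefSeq start. Capitals mark matches on either strand to 2 short motifs, GGGCGG, the GC box, found in 35.7% of the 32851 promoters of that table, and GAGGAA, the core of sites for PU.1, a factor of B-cells and myeloid cells, found in 28.3%. The Cd72 window (chr4:43454577-43454876, minus strand) held 1 match to GAGGAA, read on the other strand, and 0 to GGGCGG. The Tmsb4x window (chrX:167209169-167209468, minus strand) held 1 and the Flna window (chrX:74246485-74246784, minus strand) 3 matches to GGGCGG, and neither held GAGGAA.
Cd72: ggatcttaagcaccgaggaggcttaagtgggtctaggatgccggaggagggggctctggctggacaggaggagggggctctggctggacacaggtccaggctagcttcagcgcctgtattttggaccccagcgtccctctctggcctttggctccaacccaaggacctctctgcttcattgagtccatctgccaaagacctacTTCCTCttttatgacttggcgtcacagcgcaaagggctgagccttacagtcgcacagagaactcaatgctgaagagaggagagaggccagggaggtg
Tmsb4x: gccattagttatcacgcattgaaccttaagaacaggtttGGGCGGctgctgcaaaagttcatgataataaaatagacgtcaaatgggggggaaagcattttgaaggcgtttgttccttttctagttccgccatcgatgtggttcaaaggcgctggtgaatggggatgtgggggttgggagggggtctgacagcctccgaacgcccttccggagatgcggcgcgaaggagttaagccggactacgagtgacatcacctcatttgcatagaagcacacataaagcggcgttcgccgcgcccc
Flna: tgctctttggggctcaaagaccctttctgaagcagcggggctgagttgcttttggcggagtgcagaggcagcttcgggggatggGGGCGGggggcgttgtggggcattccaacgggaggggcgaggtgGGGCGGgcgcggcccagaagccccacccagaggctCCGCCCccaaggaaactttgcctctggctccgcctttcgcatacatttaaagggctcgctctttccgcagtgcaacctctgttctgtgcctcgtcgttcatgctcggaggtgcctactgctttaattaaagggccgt

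The list of B-cell identity genes held 15 tested genes, of which 2 (Cd72 and Ly6d) fell past the threshold and 0 rose, beside 0.413 and 0.207% of all genes tested. At an unadjusted p under 0.05, 7 were lower and 0 higher, beside 8.34 and 6.79%, and the median log2 fold change was -0.23. Cd79b, the signalling partner chain, was at 2782, 3324 and 3408 CPM at 77 weeks and 2208, 2207 and 2053 CPM in the oldest mice (log2 fold change -0.56, adjusted p = 0.11). With limma its log2 fold change was 0.015, of the other sign. Cr2, a complement receptor and part of the coreceptor, was at 480, 473 and 528 CPM and 317, 236 and 251 CPM (log2 fold change -0.88, adjusted p = 0.125). Vpreb3, a chaperone-like protein of B-lineage cells, was at 324, 384 and 456 CPM and 250, 148 and 96.1 CPM (log2 fold change -1.24, adjusted p = 0.214). All 3 had every oldest mouse below every mouse of 77 weeks and did not pass. Of the other defining genes, which did not pass, Cd79a was at 3461 ± 260 and 2942 ± 367 CPM and Cd74 at 18835 ± 607 and 18125 ± 986 CPM (SD, n = 3 each). Of 23 tested genes of B-cell receptor signalling 1 fell, which was again Cd72, beside 0.413% of all genes tested. At an unadjusted p under 0.05, 3 were higher and 4 lower, beside 6.79 and 8.34%, and the median was -0.01.

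Lambda light chain genes were the third group. Iglc2, a constant gene of the lambda chain, was at 3152, 3093 and 3574 CPM at 77 weeks and 1855, 1815 and 2245 CPM in the oldest mice. Iglc2 fell by 0.73 on the log2 scale (SE 0.12, adjusted p = 0.089). Iglj1, a joining segment of the lambda chain (chr16:19063225-19063262), was at 75.3, 99.5 and 72.4 CPM and 29.7, 28.8 and 27.0 CPM, and fell by 1.53 (SE 0.21, adjusted p = 0.057). Iglc3 and Iglc1 were lower in all oldest mice without passing, at log2 fold changes of -0.71 (adjusted p = 0.1002) and -1.05 (adjusted p = 0.186), and Igkc of the kappa chain was at 10154 ± 652 and 8303 ± 810 CPM (SD, n = 3 each, adjusted p = 0.243). The constant genes are near copies of each other and a read that matches several can be counted for the wrong one or for none, so the single values are uncertain. Of 6 constant genes tested 1 fell and 0 rose, beside 0.413 and 0.207% of all genes tested, and 4 were lower at an unadjusted p under 0.05, beside 8.34%, with a median of -0.50. All immunoglobulin genes together took 3.57, 3.4 and 3.25% of the counts of a cell at 77 weeks and 3.05, 2.82 and 2.93% in the oldest mice (exact permutation p = 0.1).

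The share of lambda cells and the counts per cell were measured separately, a step chosen after seeing the data. Cells with more lambda than kappa counts were 15 of 150 at 77 weeks and 19 of 195 in the oldest mice. Per mouse they made up 10.2% ± 3.16 (SD, n = 3) and 9.85% ± 0.766 (SD, n = 3) of the B-cells (exact permutation p = 0.9), and the range over mice was 7.41 to 13.6% and 8.97 to 10.4%. Over kappa cells the level of Iglc2 was 2862 ± 269 CPM (SD, n = 3 mice) at 77 weeks and 1863 ± 380 CPM in the oldest mice, and 97.8 and 98.3% of the kappa cells had a count. Over lambda cells it was 5966 ± 1857 CPM and 3900.5 ± 861 CPM. A difference in the share of lambda cells was thus not detectable with 3 mice per age. The heavy chain constant gene with the most counts was Ighm in 127 and Ighd in 23 of the 150 cells of 77 weeks. Among the 195 cells of the oldest mice it was Ighm in 161, Ighd in 33 and Igha in 1.

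**Figure D3:**
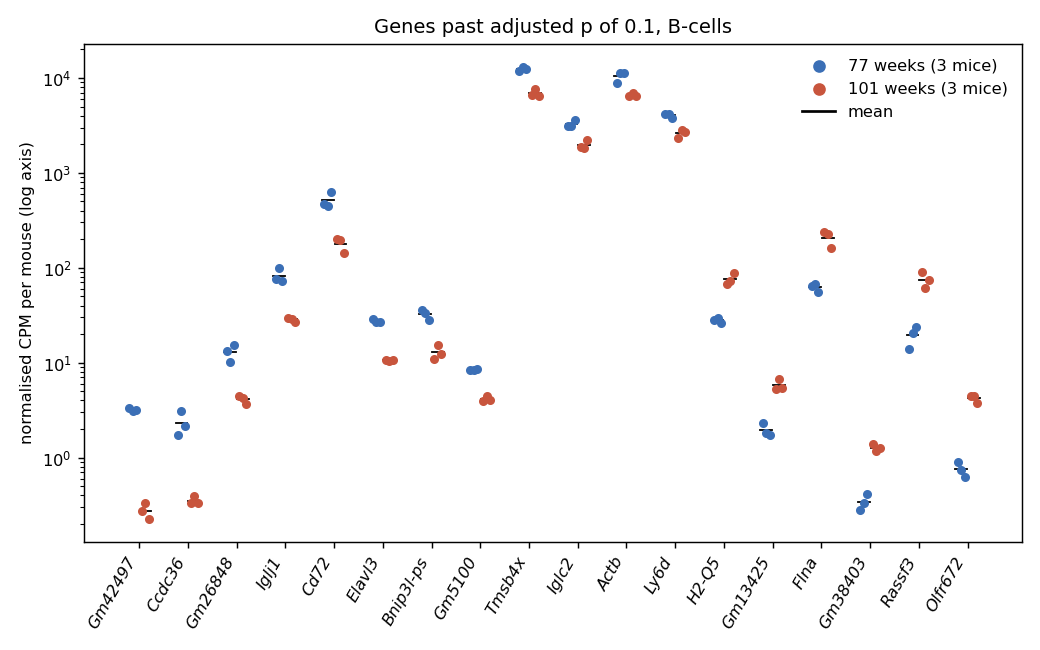
Normalised level (CPM, log axis) in the B-cells of each mouse of the 18 genes past the threshold, ordered from the largest decrease to the largest increase. Points are mice (blue 77 weeks, red the oldest mice, 3 each) and bars their mean, and the mice of the 2 ages do not overlap for any of these genes, which the test selects.

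Several genes with the smallest p-values were of low level. Gm42497 (chr5:128239382-128241339), listed as not experimentally tested, had 59, 37 and 46 counts in all B-cells of mice 21, 22 and 23 and 9, 6 and 6 counts in those of mice 1, 2 and 3. It fell by 3.52 on the log2 scale (SE 0.24, adjusted p = 0.00478), and it was the gene still past the threshold when mouse 1 or mouse 23 was left out. Ccdc36, named for a coiled-coil domain, had 31, 37 and 31 counts and 11, 7 and 9 counts, and fell by 2.7 (adjusted p = 0.0349). Elavl3, a neuronal RNA-binding protein, was at 28.8, 27.1 and 26.8 CPM and 10.7, 10.4 and 10.7 CPM, and fell by 1.38 (adjusted p = 0.057), with a count in 98.0% ± 0.225 and 78.6% ± 5.32 (SD, n = 3 each) of the thinned cells. Olfr672, an olfactory receptor gene, was at 0.899, 0.747 and 0.62 CPM at 77 weeks and 4.45, 4.4 and 3.77 CPM in the oldest mice, and rose by 2.46 on the log2 scale (SE 0.23, adjusted p = 0.0199). In the T-cells of the same mice the log2 fold change was -3.07 for Gm42497, -1.79 for Ccdc36, -1.28 for Elavl3 and 2.88 for Olfr672.

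The remaining genes without a known protein product were Gm38403 and Gm13425, which rose, and Gm26848, Bnip3l-ps and Gm5100, which fell. Gm38403 had 5, 4 and 6 counts in mice 21, 22 and 23 and 46, 21 and 34 counts in mice 1, 2 and 3 (log2 fold change 1.89, edgeR adjusted p = 0.057). Gm13425 is antisense (chr2:31633453-31640589), was at 2.30, 1.83 and 1.72 CPM and 5.32, 6.69 and 5.41 CPM, and its reads cannot be told apart from those of a gene on the other strand, as the strand setting is not given in the sources used here. Gm26848 was at 13.4, 10.1 and 15.4 CPM and 4.45, 4.23 and 3.66 CPM, but 1 cell each held 73.0 and 70.5% of its counts in mice 22 and 23. Without the top cell of each mouse Gm26848 was at 9.55, 2.74 and 4.54 CPM and 3.52, 3.57 and 3.21 CPM, and the ages overlapped, while the other 17 genes kept their separation. With limma the log2 fold change of Gm26848 was 0.077. Bnip3l-ps, at 35.9, 33.5 and 27.8 CPM and 10.9, 15.3 and 12.3 CPM, and Gm5100, at 8.43, 8.39 and 8.47 CPM and 3.91, 4.4 and 4.03 CPM, are processed pseudogenes and can take reads of their parent genes. This holds for much of the table, since 942 of the 2903 genes tested are processed pseudogenes, of which 1 passed (Gm5100), and 35 are transcribed processed pseudogenes, of which 1 passed (Bnip3l-ps).

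Among genes related to antigen presentation 1 passed. H2-Q5, a nonclassical MHC class I gene listed as a polymorphic pseudogene (chr17:35394126-35397800), was at 28.3, 29.6 and 25.9 CPM at 77 weeks and 67.9, 73.3 and 87.1 CPM in the oldest mice. It rose by 1.45 on the log2 scale (SE 0.20, adjusted p = 0.057), to a fold of 2.73. The neighbouring H2-Q7 was at 140, 148 and 103 CPM and 227, 265 and 341 CPM (adjusted p = 0.172) and H2-Q6 at 172, 82.6 and 138 CPM and 152, 294 and 366 CPM (adjusted p = 0.302). These genes are near copies, so reads can be split between them. Psmb8 and Psmb9 of the immunoproteasome, which cuts proteins into peptides for class I, were at 701 ± 80.8 and 530.0 ± 20.5 CPM and at 256 ± 68.4 and 157 ± 17.7 CPM (SD, n = 3 each, adjusted p = 0.254 and 0.288). The log2 fold change was 0.22 for Psmb8 with limma, 0.28 for Psmb9 with genes detected as a covariate and -0.32 for H2-Q6 with the share of class 0 cells as a covariate. Of 17 class I genes and 12 class II genes in the lists, which do not hold H2-Q5, 0 passed, with medians of -0.24 and -0.02.

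Among the genes of protein breakdown and respiration 0 passed. Of 18 proteasome genes 0 passed, 6 were lower and 0 higher at an unadjusted p under 0.05, 7 had all oldest mice below, and the median was -0.50. Psmb3 was at 248, 304 and 319 CPM and 126, 143 and 118 CPM (log2 fold change -1.17, adjusted p = 0.1002), just outside the threshold, and Psma7 at 262, 287 and 345 CPM and 161, 170 and 136 CPM (adjusted p = 0.15). Of 58 nuclear genes of the respiratory chain 0 passed, 7 were lower and 0 higher at an unadjusted p under 0.05, 16 lay all below and 0 all above, and the median was -0.33. Of all genes tested 8.34% were lower at this p and 11.5% lay all below. Cox7c was at 390, 363 and 384 CPM and 244, 217 and 293 CPM (log2 fold change -0.59, adjusted p = 0.217), and with limma its log2 fold change was 0.49. The 13 mitochondrial genes were mixed, with 3 lower (mt-Cytb, mt-Co3 and mt-Atp6) and 2 higher (mt-Nd4l and mt-Nd1) at an unadjusted p under 0.05. The log2 fold change was 0.016 for mt-Cytb with genes detected as a covariate and 0.061 for mt-Co3 with the share of class 0 cells. They took 2.33% ± 0.282 and 2.12% ± 0.101 (SD, n = 3 each) of the counts of a cell (all mitochondrial genes, exact permutation p = 0.4).

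Of 82 ribosomal protein genes tested 0 passed, 15 were higher and 0 lower at an unadjusted p under 0.05, 24 had all oldest mice above and 3 all below, and the median was 0.12. Of all genes tested 6.79% were higher at this p and 11.5% lay all above. Rps15a was at 1304, 1303 and 1152 CPM and 1718, 1627 and 1634 CPM (log2 fold change 0.41, adjusted p = 0.175) and Rpl26 at 978, 833 and 954 CPM and 1266, 1217 and 1203 CPM (log2 fold change 0.41, adjusted p = 0.194). Summed over the list they took 10.3, 9.38 and 9.42% of the counts of a B-cell at 77 weeks and 11.8, 11.8 and 11.1% in the oldest mice, without overlap (exact permutation p = 0.1). In class 0 cells the values were 10.2% ± 0.650 and 11.6% ± 0.393 (SD, n = 3 each).

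Of 19 immediate early genes, which respond quickly to a stimulus, 0 passed, 4 were higher and 0 lower at an unadjusted p under 0.05, beside 6.79 and 8.34% of all genes tested, and the median was 0.18. Jund was at 18.5, 11 and 16.4 CPM and 35.7, 55.3 and 48.7 CPM (log2 fold change 1.61, adjusted p = 0.1002). Junb, its relative in the AP-1 dimer, was at 3284, 3159 and 1321 CPM and 6106, 4511 and 3783 CPM (adjusted p = 0.307), and Ier2 at 701, 1071 and 572 CPM and 1443, 1185 and 1303 CPM (adjusted p = 0.234). With genes detected as a covariate the log2 fold change was -0.19 for Junb and -0.24 for Ier2. Of 9 genes of the NF-kB pathway 0 passed and the median was 0.49.

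Genes tied to B-cell states gave 0 calls. Of the 22 listed genes of age-associated and memory B-cells 7 reached the 25% filter and 0 passed. Cd80, a costimulatory ligand of memory B-cells, was at 10.6, 3.4 and 8.74 CPM and 1.20, 1.28 and 1.83 CPM (log2 fold change -2.40, adjusted p = 0.109), and Ahnak, a very large scaffold protein, at 89.4, 193 and 322 CPM and 421, 519 and 613 CPM (log2 fold change 1.36, adjusted p = 0.246). Of 12 follicular, 6 marginal zone, B-1 and transitional, 2 plasma cell and 20 transcription factor genes tested 0 passed, with medians of 0.01, -0.44, -0.24 and 0.05. Also 0 passed among the tested genes for the interferon response (6, median 0.01), survival (6, -0.07), homing (13, -0.21), protein folding (12, 0.04), splicing (40, 0.05), the cell cycle (4, -0.06), toll-like receptors (3, -0.25) and translation factors (25, -0.07). Members of the marker lists of T-cells, NK cells, red blood cells and platelets were all below the 25% filter, and of the monocyte and neutrophil list 2 were tested and 0 passed.

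**Figure D4:**
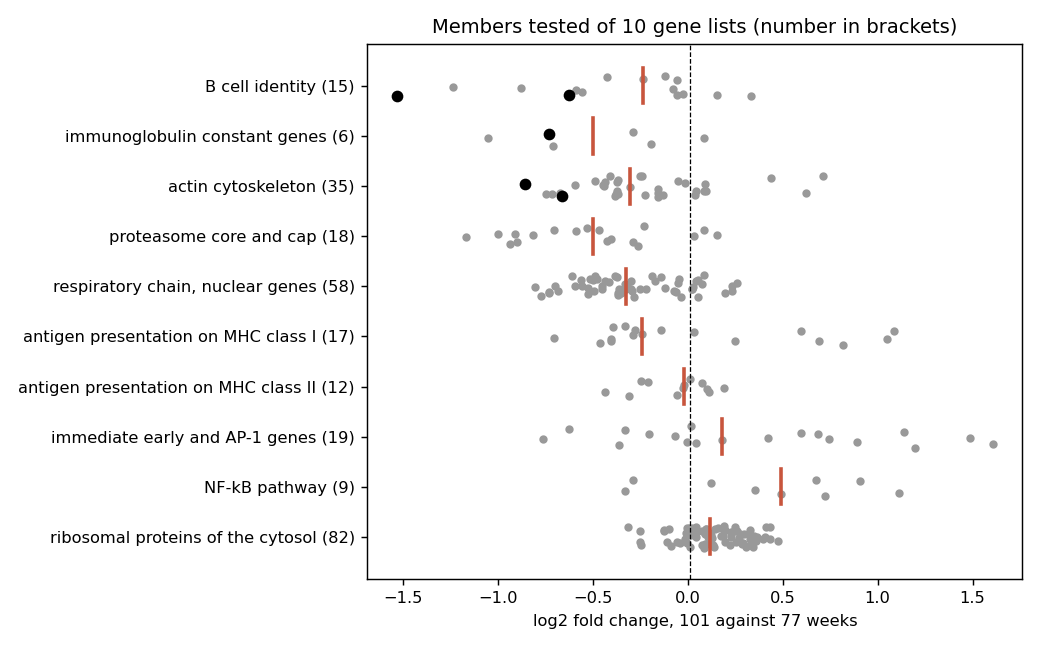
Log2 fold change of the oldest mice over 77 weeks for the tested members of 10 gene lists in B-cells, with the number tested in brackets. Grey points are members, black points those past the threshold, red bars the median of a list and the dashed line the median of all genes tested (0.01), and the medians run from -0.50 for proteasome and immunoglobulin constant genes to 0.49 for the NF-kB pathway.

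Whether the changes differed between B-cells and T-cells of the same 6 mice was tested as an interaction in 1 fit with the mouse as a block, so that its differences need not equal those between the separate fits of the cell types. Of 4204 genes with a count in at least 25% of either type edgeR called 0, beside 193 whose unadjusted p was under 0.05, and DESeq2 called 71. Tmsb4x was at 14570, 17063 and 19151 CPM in T-cells of 77 weeks and at 11796, 15158 and 9988 CPM in those of the oldest mice, and its change in B-cells was lower by 0.38 on the log2 scale (SE 0.13, unadjusted p = 0.029, adjusted p = 0.962). The same difference was -0.36 for Actb (SE 0.12, unadjusted p = 0.0253, adjusted p = 0.962) and 1.58 for Jund (SE 0.57, unadjusted p = 0.0315, adjusted p = 0.962).

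The 5 mice of 10 and 36 weeks, which the contrast did not use, set these changes beside younger levels, as a description. For 9 of the 18 genes all 5 younger mice lay on the side of 77 weeks where the oldest mice were. Flna was at 94.3 to 207 CPM in the younger mice, above all mice of 77 weeks, and Elavl3 at 8.01 to 25.5 CPM, below all of them. Cd72 was at 225 to 381 CPM in the younger mice, between the 2 late ages. For Iglc2 the younger mice, at 2679 to 3635 CPM, lay above all oldest mice and around those of 77 weeks, and Actb, at 8015 to 9727 CPM, lay above all of the oldest mice too. Tmsb4x was at 6923 CPM (mean of 2 mice) at 10 weeks and 9134 CPM (mean of 3 mice) at 36 weeks, with 1 younger mouse at 12188 CPM. By the mean of the younger mice, 10 of the 18 genes were nearer to the oldest mice than to those of 77 weeks on the log scale. Neither the 9 nor the 10 genes were set beside a count over all genes tested. The 18 genes were chosen by their levels at 77 weeks and in the oldest mice, so nothing is read from either count.

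**Figure D5:**
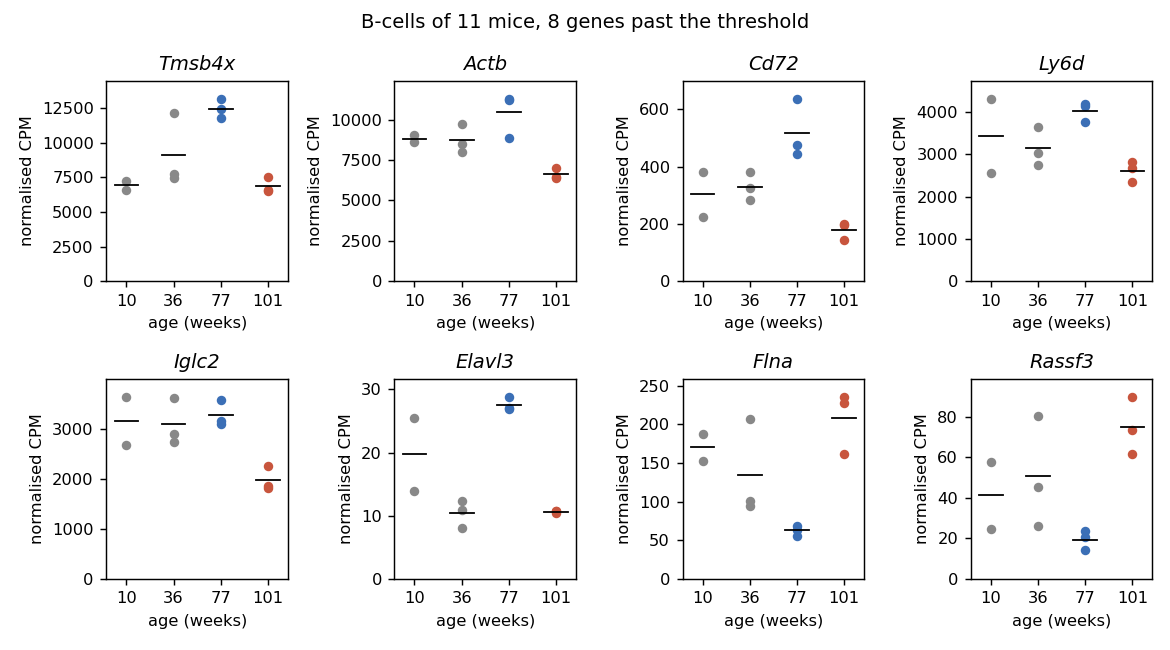
Normalised level (CPM) in B-cells of 8 of the genes past the threshold in all 11 mice, by age. Points are mice (grey 10 and 36 weeks, blue 77 weeks, red the oldest mice) and bars means. For Flna, Elavl3, Rassf3 and Cd72 the mice of 77 weeks stand apart from all younger mice, while for Iglc2, Actb and Cd72 the oldest mice do.

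Across the 18 genes the ages were also compared by the share of thinned cells with a count and by the mean count in those cells. The shares did not overlap for 10 genes and the counts per positive cell for 17, and both for 9. Of all 2903 genes tested the shares did not overlap for 956 (32.9%), with 31.2% higher and 1.69% lower in the oldest mice. The counts per positive cell did not overlap for 668 (23%), with 6.13% higher and 16.9% lower, and both measures for 212 (7.3%). The 18 genes were chosen by the same counts, and nothing is read from their number. With 3 mice per age the exact permutation p was at least 0.1 (0.18 after adjustment over 18 genes), so these shares carry no call of their own. Tmsb4x, Actb, Ly6d, Iglc2, Cd72, Iglj1, Gm26848 and Bnip3l-ps separated by counts per positive cell alone, and Flna by the share alone.

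The fold change also varied with the length of the gene. Over 1733 protein-coding genes Spearman's correlation of the log2 fold change with the summed exon length was 0.22, as a description across genes that share the same 6 mice. The median log2 fold change was -0.12 in the shortest quintile (204 to 2089 bases) and 0.17 in the longest (9454 to 35542 bases). At an unadjusted p under 0.05, 23 genes were higher and 41 lower in the shortest quintile, and 42 were higher and 16 lower in the longest. With an offset for length, chosen after seeing the data, 11 genes passed, all among the 18, and Tmsb4x stayed past the threshold while Cd72, Flna, Ly6d, Iglc2 and Actb did not, at log2 fold changes of -1.44, 1.66, -0.62, -0.74 and -0.56 beside -1.53, 1.74, -0.63, -0.73 and -0.66 without the offset.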

How the data were processed

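The authors aligned trimmed RNA reads against GRCm38 using STAR, assigned them to Ensembl genes with featureCounts, and deposited raw counts per gene and cell, without molecular identifiers and without normalization. Age, mouse, cell type and contamination class came from the study's cell table, where the oldest mice are the group of 101 weeks. The counts of the B-cells were summed per mouse, and 2903 of 38788 genes, those with a count in at least 25% of the 345 cells, were scaled with TMM and tested with edgeR 4.0.16 (robust quasi-likelihood test, R 4.3.3) with the mouse as replicate and an adjusted p of 0.1 as threshold. Levels are TMM-normalised CPM. The counts behind them were 12950993 to 31416921 per mouse. Cells were thinned to 150000 counts with seed 20240831, and exact permutation tests over mice were two-sided. Intervals are SD or SE over mice. The gene lists and the comparison were chosen with earlier results of these data known. Genes named are up to 15 per direction past the threshold, filled to 10 by the smallest p, up to 4 per list and the markers, and genes named beyond these (Actg1, mt-Atp6) were chosen after their values were seen. Alternatives used DESeq2 1.42.0 and limma 3.58.1, other filters, cells, scalings and covariates, and each mouse left out. Only the main edgeR test was also run on simulated data. Methylation was not analysed here.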

Additional observations from a re-analysis of the deposited data

How the results depend on the processing

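The number of genes past the threshold (18) was 194 in DESeq2, 551 with limma on log2(CPM + 1) averaged across the cells of a mouse, a scale on which the median of all genes moved to 0.42, 34 among genes detected in at least 50% of the cells, 11 with the length offset, 9 in class 0 cells, 8 among protein-coding genes, 6 among genes detected in at least 10%, 3 in cells without counts on other markers, 2 with no filter beyond 1 count, with 44 cells per mouse, with cells thinned to 150000 counts and with lane as a term, and 0 with edgeR's filterByExpr (762 genes at an unadjusted p under 0.05), with genes detected (193) or the share of class 0 cells (266) as a covariate, and in lane 2 (445). It was 27 with DESeq2's size factors, 25 with all 11 mice and 16 with upper quartile factors, and 1 to 10 with single mice left out. Of the 27, 25 and 16 genes, 18, 13 and 14 were among the 18 of the main test. DESeq2 held all 18 genes. Tmsb4x kept its direction in 25 of 25 alternatives and its call in 16, and Gm42497 in 18 of 23, the most among the 18 genes. The call held in 14 of 25 for Olfr672, 7 of 25 for Actb, 6 of 24 for Flna and 6 of 23 for Iglj1. It held in 5 of 24 each for Cd72, Iglc2 and Rassf3, 4 of 25 for Ly6d and 2 of 23 for Bnip3l-ps, the fewest. The interaction with T-cells gave 71 genes in DESeq2, 2 with CD8+ T-cells only and 0 to 1 with single mice left out. The difference in genes per cell was 314 to 602 under the other settings and 361 to 528 with single mice left out.

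Signs were followed for the 18 genes and for 52 other genes of the naming rule whose unadjusted edgeR p was under 0.05. Named genes with a larger p and the rest of the genes tested were not followed. Among the genes followed, signs changed in 3 settings, and the cause was not tested. With limma the log2 fold change was 0.077 for Gm26848, 0.015 for Cd79b, 0.15 for Mef2c, 0.49 for Cox7c, 0.021 for Ctss, 0.11 for Psmc1, 0.22 for Psmb8, 0.56 for Ebf1, 0.43 for H2-DMb2, 0.42 for Son and 0.91 for Clk1. With genes detected as covariate it was 0.016 for mt-Cytb, -0.24 for Ier2, 0.18 for Ndufa13, 0.28 for Psmb9 and -0.19 for Junb. With the share of class 0 cells it was 0.061 for mt-Co3, 0.058 for Son, 0.12 for Eif5a and -0.32 for H2-Q6. Csf1r has no value in cells without counts on other markers, since it is such a marker. No paired analysis was possible because mice of the 2 ages share no number. Leaving out 1 mouse of an age leaves 2 there, and in lane 2 the lone mouse of 77 weeks was assumed to vary like the oldest mice.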
